A study of Homo sapiens with 12 samples.

Results

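Receptor tyrosine kinases other than EGFR, which can carry growth signals past a blocked EGFR, were followed in 3 lung cancer cell lines. The set holds 10 genes, all found by symbol as 1 row each among the 57905 genes of the deposited table. They are the receptors AXL, MET, FGFR1, FGFR2, FGFR3, IGF1R, EPHA2, EPHA4 and DDR1, with GAS6, the ligand of AXL. RNA came from PC9, HCC827 and HCC4006, established human non-small cell lung cancer lines that the labels call EGFR-mutant, with 2 libraries for each line and treatment and 12 in all. In the dormant groups, EGFR was inhibited with 100 nM osimertinib and MEK with 30 nM trametinib over 2 weeks. The matching control groups were kept in DMSO, the solvent of the drugs, during 24 hours. Treatment therefore cannot be told apart from time in culture or from the larger plates of the dormant cells. Plates were set up in duplicate, and nothing says that they came from separate cultures, so p-values measure only the spread between these samples.

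Receptor tyrosine kinases sit in the cell membrane, pair up or change shape when a ligand binds outside, and phosphorylate tyrosines inside the cell. Adaptor proteins dock there and switch on the RAS-ERK and PI3K-AKT pathways, the same ones that EGFR uses. In EGFR-mutant lung cancer, amplification of MET and high AXL are known routes of resistance to EGFR inhibitors, and IGF1R and FGFR signalling are known to help cells tolerate them. RNA levels do not measure receptor protein or phosphorylation.

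Values are FPKM, fragment counts scaled by gene length and library size as deposited by the authors, so levels of different genes can be set side by side. Differences subtract the DMSO from the dormant mean of log2(FPKM + 1) and carry their SE. They were tested with limma over 14699 genes that reached 1 FPKM in at least 2 libraries, with Benjamini-Hochberg adjustment over all of them, and "rose" and "fell" are kept for an adjusted p under 0.05. Of the 10 genes, 9 passed that filter and FGFR3 did not.

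The epithelial marker list was detected in full, with 7 of 7 genes at 1 FPKM or more in every library. Its summed level was 1036 FPKM in the second HCC4006 dormant and 1263 FPKM in the second HCC827 DMSO library, against 5744 to 22974 FPKM elsewhere. Leukocyte markers were near 0 apart from CD68, and CD3E was at 0 throughout. Endothelial markers summed to 0.125 to 8.75 FPKM in dormant and 0.03 to 0.19 FPKM in DMSO libraries. That high end came from VWF (3.05 FPKM) and TIE1 (5.7 FPKM) in the second HCC4006 dormant library. At most 4 of the 8 fibroblast markers reached 1 FPKM in a dormant library and at most 2 in a DMSO library, and their summed level was 1.08 to 382 FPKM in dormant and 0.64 to 3.34 FPKM in DMSO libraries. The high end came from COL1A2 in dormant HCC4006. Summed mesenchymal markers ranged from 64.1 to 816 FPKM in dormant and from 12.03 to 238 FPKM in DMSO libraries. Dormant PC9 libraries were higher without overlap for FN1 (57.8 and 69.0 FPKM, against 5.51 and 7.98 FPKM in DMSO) and CDH2. They were lower without overlap for VIM (2.04 and 2.48 FPKM, against 11.7 and 10.8 FPKM in DMSO) and SNAI2. The part of these markers in the differences below was not tested. In bulk RNA, fewer cells of a type and less RNA per cell cannot be told apart. The HCC4006 dormant library numbered 2 correlated with its partner at r = 0.654 across tested genes, which are not independent replicates. It listed the glycolytic gene GAPDH at 6.73 FPKM, against 3755 to 19645 FPKM elsewhere, and the keratin gene KRT8 at 5.87 FPKM. Of the tested genes, 1948 were at 0 in it, against 368 to 802 elsewhere. The HCC827 DMSO libraries correlated at 0.909, and the other pairs at 0.979 to 0.991. Results are therefore also given without the second HCC4006 dormant and the second HCC827 DMSO library, called the doubted libraries, a check added after the data were seen. That fit leaves 1 library in each of those groups, which is assumed to vary like the others.

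Averaged across PC9, HCC827 and HCC4006, dormancy went with more RNA of the ligand GAS6, of the collagen receptor DDR1, of IGF1R and of FGFR2, and less of EPHA2. GAS6 and DDR1 were higher in both dormant libraries than in both DMSO libraries of every line. AXL and MET, the best known bypass receptors, were not called, with differences of -1.42 ± 0.76 and -0.57 ± 0.28. Of the 9 tested genes 4 rose and 1 fell, where 10.9% of all tested genes rose and 4.55% fell. This balance depended on the scaling. Under median of ratios scaling and under quantile normalization, 2 of the 9 rose, GAS6 and DDR1, and 2 fell, MET and EPHA2. Of all tested genes 8.22% rose and 8.44% fell under the first of these scalings, and 8.6% and 8.95% under the other. Without rescaling, the median difference of the 9 was 0.43, and that of all tested genes was 0.22. Leaving out the doubted libraries, 4 rose and 2 fell, where 30% and 12.8% of all tested genes did. By line, 2 of the 9 rose in HCC827, where 3.06% of all tested genes rose, and none was called by limma in PC9 (2.71% of all tested genes called) or in HCC4006 (6.07%). At an unadjusted p under 0.05, 3 were past the threshold in PC9 and 5 in HCC4006, as were 12.1% and 29.7% of all tested genes. The fit without the doubted libraries called 4 of the 9 in each line, 2 up and 2 down in PC9 (13.1% and 8.65% of all tested genes), and 3 up and 1 down both in HCC827 (11.1% and 6.57%) and in HCC4006 (14.9% and 3.72%).

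**Figure D1:**
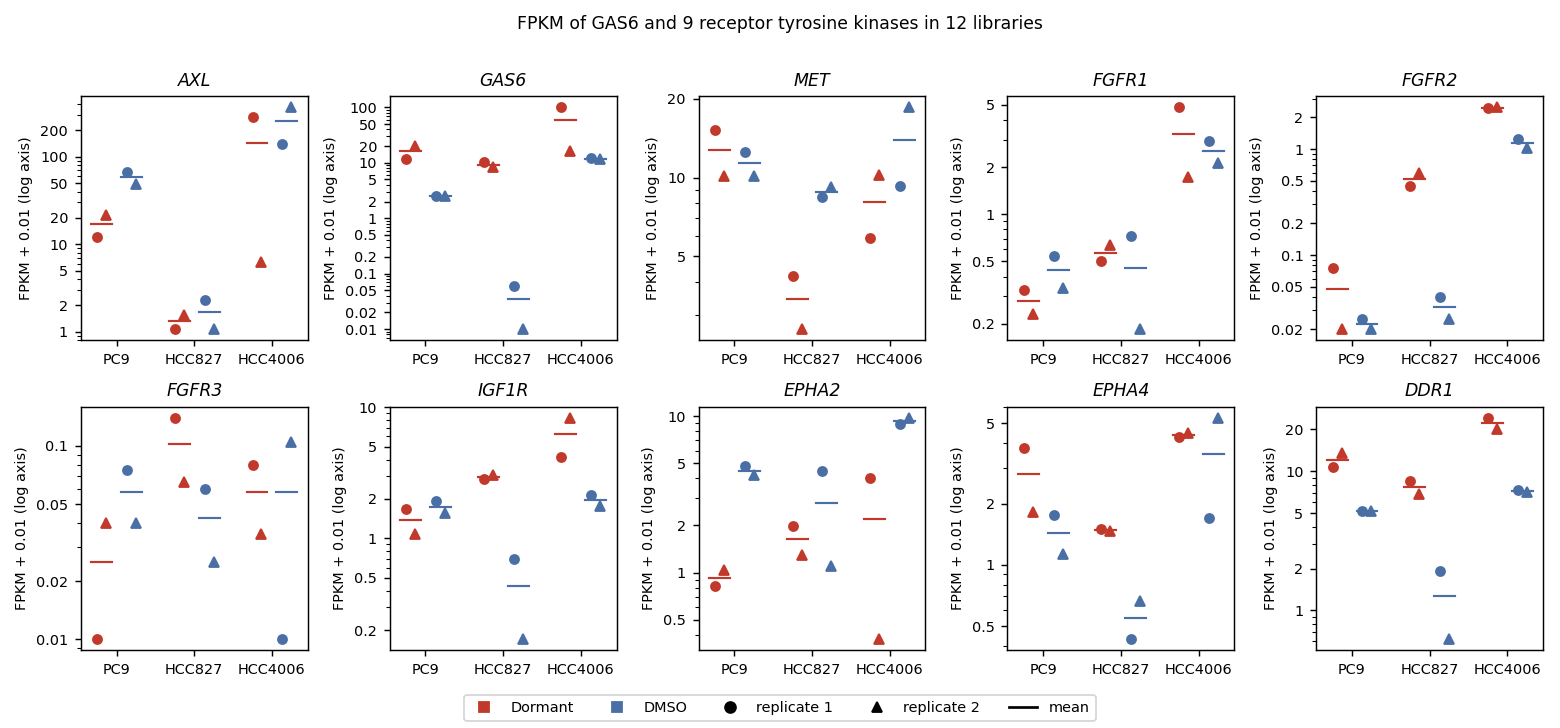
FPKM plus 0.01 on a log axis for the 10 genes in 12 libraries, by line, with dormant cells in red to the left of DMSO cells in blue. Circles and triangles are replicates 1 and 2 and lines are group means. GAS6 and DDR1 lie higher in dormant cells in all 3 lines, and AXL spans 6.28 to 285 FPKM between both dormant HCC4006 libraries.

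GAS6 encodes a secreted, vitamin K dependent protein that activates AXL and its relatives TYRO3 and MERTK. In PC9 it had 11.9 and 20.4 FPKM in dormant cells, against 2.52 and 2.53 FPKM in DMSO cells. In HCC827 it had 10.2 and 8.29 FPKM in dormant cells, against 0.05 FPKM and a value listed at 0 in DMSO cells. In HCC4006 it had 99.5 and 16.5 FPKM in dormant cells, against 11.96 and 11.8 FPKM in DMSO cells. No line had overlapping groups, and the DMSO libraries of a line lay close together while the dormant HCC4006 libraries lay far apart. GAS6 rose by 2.42 ± 0.40 in the mean (adjusted p = 0.004), the largest difference among the 9 tested genes. The call held whichever of the 12 libraries was left out (2.00 to 2.84, adjusted p up to 0.0199) and without the doubted libraries (2.83, adjusted p = 1.04e-05). By line the differences were 2.24 ± 0.69 in PC9 (adjusted p = 0.167), 3.32 ± 0.69 in HCC827 (adjusted p = 0.0268) and 1.70 ± 0.69 in HCC4006 (adjusted p = 0.141). The HCC4006 value rests on its dormant libraries, at 0.44 without the first (adjusted p = 0.365) and 2.96 without the second (adjusted p = 0.00119). Among 12 omissions of 1 library, 10 ended the HCC827 call, all but those of a dormant HCC4006 library (adjusted p up to 0.216), as did using no filter (adjusted p = 0.0744) or the line alone (adjusted p = 0.0518). All 3 lines were called without the doubted libraries, with adjusted p of 0.000631 in PC9, 0.000337 in HCC827 and 0.000634 in HCC4006. A replicate block within each line also ended the HCC827 call of GAS6 (adjusted p = 0.07). The GAS6 difference was above 0 in each line, and the test of a difference between lines gave an adjusted p of 0.542.

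The GAS6 promoter is shown because GAS6 differed most. It is the 300 bases from 250 before to 50 after the start in RefSeq, on the minus strand of chr13:113864027-113864326 (GRCh38.p14). It was searched on both strands for GGAATG, the core that TEAD factors bind, and TGANTCA, the site of AP-1, since the study's title names YAP, the partner of TEAD factors. Any match would stand in capitals, and neither was found in this window.
GAS6 promoter: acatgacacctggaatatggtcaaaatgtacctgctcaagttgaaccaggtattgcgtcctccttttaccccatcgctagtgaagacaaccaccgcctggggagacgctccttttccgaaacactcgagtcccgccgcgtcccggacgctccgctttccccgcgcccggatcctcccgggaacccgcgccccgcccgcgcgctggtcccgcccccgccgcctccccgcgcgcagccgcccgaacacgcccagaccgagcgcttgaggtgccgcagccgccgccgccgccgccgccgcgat
Among 35114 promoter windows of the same length, 14% hold GGAATG and 7.71% hold TGANTCA. FGFR1 was not searched, and the other 9 members had 22 windows, of which 5 held GGAATG and 1 held TGANTCA. A match is a run of letters, not a shown binding site.

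AXL, the receptor for GAS6, was lower in dormant PC9 and overlapped in both other lines. PC9 libraries had 12.1 and 21.8 FPKM in dormant cells, against 67.4 and 49.2 FPKM in DMSO cells. HCC827 libraries had 1.06 and 1.55 FPKM in dormant cells, against 2.28 and 1.07 FPKM in DMSO cells. HCC4006 libraries had 285 and 6.28 FPKM in dormant cells, against 140.5 and 366 FPKM in DMSO cells. Dormant HCC4006 held both the second highest and one of the lower values, and HCC827 was low in all 4 libraries. The difference was -1.76 ± 1.32 in PC9 (adjusted p = 0.752), -0.18 ± 1.32 in HCC827 and -2.32 ± 1.32 in HCC4006, and the mean was not called (adjusted p = 0.224). The wide SE is shared by all groups and holds the spread of dormant HCC4006. With the doubted libraries left out AXL fell in PC9 (-1.76, adjusted p = 0.0206), and it was also called there without either dormant HCC4006 library (adjusted p = 0.0469 and 0.0483). Without the second HCC4006 dormant library the HCC4006 difference was 0.33 (adjusted p = 0.808), and without the first it was -4.97 (adjusted p = 8.15e-05), so its sign rests on the library that stands apart. Leaving out the first also made the mean a called -2.31 (adjusted p = 0.000201), from a fit in which the library that stands apart is the only one for dormant HCC4006. With GAS6 higher, the ratio of AXL to GAS6 FPKM was 1.02 and 1.07 in dormant PC9, against 26.8 and 19.5 in DMSO PC9. It was 2.86 and 0.381 in dormant HCC4006, against 11.7 and 31.0 in DMSO HCC4006.

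DDR1 is a receptor tyrosine kinase whose ligands are collagens. Its PC9 libraries had 10.7 and 13.5 FPKM in dormant cells, against 5.21 and 5.20 FPKM in DMSO cells. Its HCC827 libraries had 8.47 and 6.83 FPKM in dormant cells, against 1.92 and 0.61 FPKM in DMSO cells. Its HCC4006 libraries had 24.3 and 20.0 FPKM in dormant cells, against 7.39 and 7.12 FPKM in DMSO cells. The second HCC4006 dormant library, which had little AXL, was close to its replicate for DDR1. DDR1 rose by 1.51 ± 0.24 in the mean (adjusted p = 0.00338), and by 1.37 to 1.66 with each of the 12 libraries left out (adjusted p up to 0.0207). The rise in HCC827 was 1.99 ± 0.42 (adjusted p = 0.0274). Among 12 omissions of 1 library, 9 ended this call, and a dormant HCC4006 library or the first HCC827 DMSO library could be omitted without that (adjusted p up to 0.256). Fitting HCC827 alone also ended it (adjusted p = 0.102), as did a replicate block within each line (adjusted p = 0.0878). It differed by 1.07 ± 0.42 in PC9 (adjusted p = 0.309) and by 1.48 ± 0.42 in HCC4006 (adjusted p = 0.0652), and without the doubted libraries all 3 lines were called (adjusted p = 0.0104, 0.00568 and 0.00511 in PC9, HCC827 and HCC4006). GAS6 and DDR1 were the 2 of 9 tested genes with no overlap in any line and higher dormant values, a pattern that 9.12% of all tested genes had. No member was lower without overlap in every line, as 4.44% of tested genes were. In PC9, 3 members were above without overlap and 3 below, where 35.5% and 27% of tested genes were. In HCC827 these were 5 and 1 members, against 40.1% and 19.4% of tested genes, and in HCC4006 4 and 1, against 30.4% and 15.8%.

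DDR1 has several RefSeq windows, and those with a match are shown since DDR1 rose. The first, chr6:30882684-30882983 on the plus strand of GRCh38.p14, holds GGAATG 152 bases before the start. The other, chr6:30888438-30888737, holds TGANTCA 50 bases before the start. Matches are in capitals, and the data do not say which start is used.
DDR1 window with GGAATG: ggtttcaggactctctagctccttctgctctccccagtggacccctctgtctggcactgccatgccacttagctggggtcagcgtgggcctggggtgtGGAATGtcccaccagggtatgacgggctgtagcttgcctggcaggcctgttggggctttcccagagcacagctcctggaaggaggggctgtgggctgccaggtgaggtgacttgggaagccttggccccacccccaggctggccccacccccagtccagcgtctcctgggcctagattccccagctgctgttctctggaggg
DDR1 window with TGANTCA: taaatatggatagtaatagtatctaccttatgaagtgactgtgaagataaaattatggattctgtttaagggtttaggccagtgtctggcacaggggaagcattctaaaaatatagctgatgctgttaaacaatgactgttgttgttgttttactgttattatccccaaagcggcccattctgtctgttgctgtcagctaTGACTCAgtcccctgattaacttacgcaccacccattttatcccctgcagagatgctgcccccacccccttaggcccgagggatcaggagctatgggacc

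MET is the receptor for hepatocyte growth factor. Levels in PC9 were 15.2 and 10.1 FPKM in dormant cells, against 12.5 and 10.1 FPKM in DMSO cells. Levels in HCC827 were 4.2 and 2.63 FPKM in dormant cells, against 8.39 and 9.17 FPKM in DMSO cells. Levels in HCC4006 were 5.87 and 10.2 FPKM in dormant cells, against 9.25 and 18.5 FPKM in DMSO cells. The groups overlapped in PC9 and HCC4006 and were apart in HCC827, with dormant cells lower. MET differed by 0.13 ± 0.48 in PC9, -1.17 ± 0.48 in HCC827 (adjusted p = 0.23) and -0.69 ± 0.48 in HCC4006. The mean of -0.57 ± 0.28 was not called (adjusted p = 0.184). It was called without the second HCC4006 dormant library (-0.69, adjusted p = 0.0499), without both doubted libraries (-0.67, adjusted p = 0.0459), with median of ratios scaling (-0.83, adjusted p = 0.0416) and with quantile normalization (-0.90, adjusted p = 0.0277). HGF, its ligand, was at most 0.675 FPKM in any library and was not tested.

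IGF1R binds the insulin-like growth factors. In PC9 it had 1.67 and 1.07 FPKM in dormant cells, against 1.92 and 1.56 FPKM in DMSO cells. In HCC827 it had 2.84 and 3.05 FPKM in dormant cells, against 0.685 and 0.16 FPKM in DMSO cells. In HCC4006 it had 4.17 and 8.35 FPKM in dormant cells, against 2.13 and 1.75 FPKM in DMSO cells. Dormant cells were above DMSO cells without overlap in HCC827 and HCC4006, and the groups overlapped in PC9. IGF1R rose by 0.84 ± 0.22 in the mean (adjusted p = 0.0322), with differences of 1.5 ± 0.39 in HCC827 (adjusted p = 0.0626), 1.24 ± 0.39 in HCC4006 (adjusted p = 0.0809) and -0.22 ± 0.39 in PC9. The mean joins lines of unlike sign, though the test of a difference between lines gave an adjusted p of 0.309. Its call was lost without any 1 PC9 library, either HCC827 dormant library, the second HCC827 DMSO library or either HCC4006 DMSO library (0.70 to 0.98 over all 12 cases, adjusted p up to 0.112). It was also lost under median of ratios scaling (0.63, adjusted p = 0.0768) and quantile normalization (0.55, adjusted p = 0.0915). The same held with no filter (adjusted p = 0.0661), with array weights (adjusted p = 0.0856) and with a replicate block within each line (adjusted p = 0.0694). Omitting the doubted libraries, IGF1R rose in the mean (0.61, adjusted p = 0.0119) and in HCC827 (1.23, adjusted p = 0.0175).

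The FGF receptors were low. FGFR2 had 2.43 and 2.46 FPKM in dormant HCC4006, against 1.23 and 1.02 FPKM in DMSO HCC4006. HCC827 had 0.435 and 0.59 FPKM in dormant cells, against 0.03 and 0.015 FPKM in DMSO cells. PC9 had 0.065 and 0.01 FPKM in dormant cells, against 0.015 and 0.01 FPKM in DMSO cells. Dormant cells were higher without overlap in HCC827 and HCC4006, and PC9 was close to 0 throughout. FGFR2 rose by 0.43 ± 0.11 in the mean (adjusted p = 0.029), a small difference on this scale since adding 1 shrinks the change of low genes. With a pseudocount of 0.1 the mean was 1.21. The call was lost without any 1 PC9 library, either HCC827 dormant library, the second HCC827 DMSO library or the second HCC4006 DMSO library (0.41 to 0.46 over all 12 cases, adjusted p up to 0.101). It was also lost under median of ratios scaling (0.30, adjusted p = 0.0929) and quantile normalization (0.27, adjusted p = 0.157). The same held with no filter (adjusted p = 0.0992), with array weights (adjusted p = 0.171) and with a replicate block within each line (adjusted p = 0.082). Without the doubted libraries the mean difference of FGFR2 stayed at 0.43, with 0.55 in HCC827, 0.69 in HCC4006 and 0.03 in PC9.

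FGFR1 had 4.8 and 1.72 FPKM in dormant HCC4006, against 2.91 and 2.11 FPKM in DMSO HCC4006. In the 8 libraries of PC9 and HCC827 it ranged from 0.22 to 0.625 FPKM in dormant and from 0.175 to 0.715 FPKM in DMSO cells. Groups overlapped in HCC4006 and HCC827, and in PC9 dormant cells were lower. The mean difference was 0.05 ± 0.21 (adjusted p = 0.89; 95% interval -0.43 to 0.53), and its sign turned under either scaling. FGFR3 stayed at or under 0.13 FPKM in dormant and 0.095 FPKM in DMSO libraries and was listed at 0 in 1 library of each, so no difference can be read at that level. FGFR1 and FGFR2 reached 1 FPKM in HCC4006 alone.

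The Eph receptors bind ephrins on neighbouring cells, and EPHA2 and EPHA4 differed in opposite directions, of which only that of EPHA2 was called. EPHA2 had 0.805 and 1.03 FPKM in dormant PC9, against 4.77 and 4.17 FPKM in DMSO PC9. EPHA2 in HCC827 had 1.98 and 1.29 FPKM in dormant cells, against 4.43 and 1.1 FPKM in DMSO cells. EPHA2 in HCC4006 had 4.03 and 0.365 FPKM in dormant cells, against 8.89 and 9.76 FPKM in DMSO cells. Dormant cells were lower without overlap in PC9 and HCC4006, and the low second HCC827 DMSO library made the groups overlap there. EPHA2 fell by 1.29 ± 0.36 in the mean on the log2 scale (adjusted p = 0.0387). The call was lost without any 1 PC9 library, either HCC827 dormant library, the first HCC827 DMSO library or either HCC4006 DMSO library (-1.60 to -0.97 over all 12 cases, adjusted p up to 0.11). It was also lost with a pseudocount of 0.1 (-1.80, adjusted p = 0.0586), with no filter (adjusted p = 0.111) and with a replicate block within each line (adjusted p = 0.0535). In the fit without the doubted libraries EPHA2 fell in the mean (-1.2, adjusted p = 0.00048) and in every line, by 1.51 in PC9 (adjusted p = 0.00235), by 1.06 in HCC827 (adjusted p = 0.0374) and by 1.04 in HCC4006 (adjusted p = 0.0392). EPHA4 had 3.76 and 1.82 FPKM in dormant PC9, against 1.75 and 1.13 FPKM in DMSO PC9. It had 1.49 and 1.46 FPKM in dormant HCC827, against 0.42 and 0.655 FPKM in DMSO HCC827. It had 4.28 and 4.47 FPKM in dormant HCC4006, against 1.70 and 5.33 FPKM in DMSO HCC4006, where the groups overlapped. The mean difference of EPHA4 was 0.56 ± 0.26 (adjusted p = 0.17; 95% interval -0.02 to 1.14).

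EPHA2 is the 1 member that fell, and its single RefSeq window, on the minus strand of chr1:16156020-16156319 (GRCh38.p14), holds 1 GGAATG, on the opposite strand, in capitals and 73 bases before the start.
EPHA2 promoter: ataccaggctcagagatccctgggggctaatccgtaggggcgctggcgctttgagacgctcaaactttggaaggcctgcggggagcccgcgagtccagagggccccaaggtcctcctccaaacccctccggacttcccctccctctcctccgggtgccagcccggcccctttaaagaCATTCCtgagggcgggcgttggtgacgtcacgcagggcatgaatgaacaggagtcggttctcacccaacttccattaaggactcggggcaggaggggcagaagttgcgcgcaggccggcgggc

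**Figure D2:**
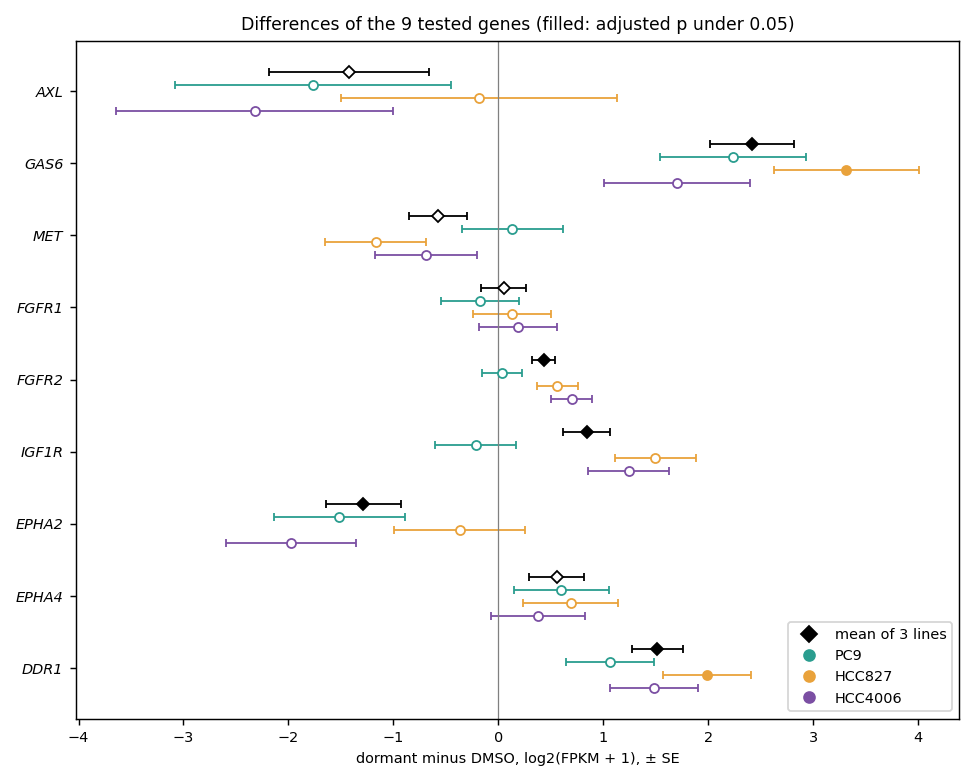
Difference of dormant minus DMSO, in log2(FPKM + 1) with SE bars, for the 9 tested genes in the mean of the lines (diamonds) and in each line (circles), filled where the adjusted p was under 0.05. GAS6 and DDR1 lie right of 0 in every line, EPHA2 lies left of 0 in every line, and IGF1R lies right of 0 in HCC827 and HCC4006 and left in PC9.

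**Figure D3:**
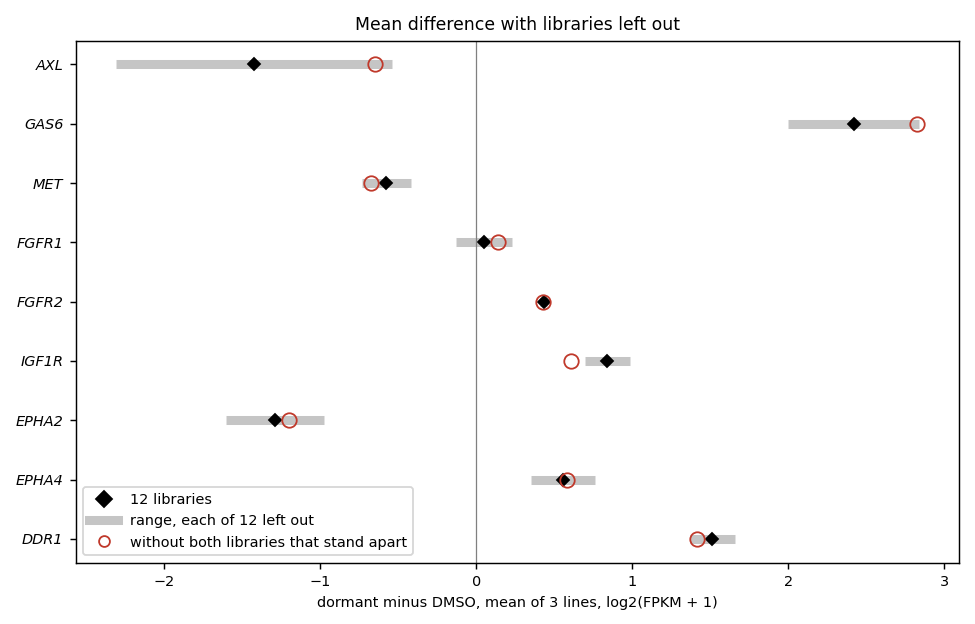
Mean difference over the 3 lines, in log2(FPKM + 1), with 12 libraries (diamonds), its range with each of them left out in turn (grey bars) and the value without both doubted libraries (red circles). AXL has the widest range, from -2.31 to -0.54, and the range of DDR1 is 1.37 to 1.66.

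The lines differed in which receptor they expressed most. AXL was the highest member in DMSO PC9 (67.4 and 49.2 FPKM) and in DMSO HCC4006, and MET was the highest in DMSO HCC827 (8.39 and 9.17 FPKM). In dormant HCC827 GAS6 came first and DDR1 next in both libraries. In dormant PC9 the first library had MET first (15.2 FPKM) and the other AXL (21.8 FPKM). The dormant HCC4006 libraries had AXL first (285 FPKM) in the first and DDR1 first (20.0 FPKM) in the second. Summed over the 9 receptors, PC9 had 44.6 and 49.7 FPKM in dormant cells, against 94.2 and 71.8 FPKM in DMSO cells. HCC827 had 21.1 and 18.1 FPKM in dormant cells, against 18.9 and 13.0 FPKM in DMSO cells. HCC4006 had 334.6 and 53.8 FPKM in dormant cells, against 174 and 412 FPKM in DMSO cells. The sums were lower in dormant PC9 without overlap, and the groups overlapped in HCC827 and HCC4006. AXL held 67.4 and 49.2 FPKM of the DMSO PC9 sums and 12.1 and 21.8 FPKM of the dormant PC9 sums. The lower sum in PC9 therefore does not describe the other receptors.

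Levels were compared between lines within each treatment. FGFR1 and FGFR2 passed the filter through HCC4006 alone and so had to be higher there. Their values above are given without a test between lines that includes HCC4006. Among DMSO libraries the F test called AXL, GAS6 and DDR1, 3 of the other 7 tested genes, where 12% of all tested genes were called. On omission of the doubted libraries it called 4 of these 7, adding EPHA2, and 48.4% of all tested genes. AXL was 6.45 ± 1.32 higher in DMSO HCC4006 than in DMSO HCC827 on the log2 scale (adjusted p = 0.0203), GAS6 3.65 ± 0.69 (adjusted p = 0.0141) and DDR1 1.93 ± 0.42 (adjusted p = 0.0273). Higher calls covered 3.52% of all tested genes in that comparison. Between DMSO HCC4006 and DMSO PC9 limma called none of the 7, where 8.25% of all tested genes were called. Of these 7, 1 had an unadjusted p under 0.05, as did 23.2% of all tested genes. AXL was 1.96 ± 1.32, GAS6 1.87 ± 0.69 and EPHA2 0.92 ± 0.62 higher in DMSO HCC4006, and none of the 7 was lower. Neither group holds a doubted library, so these differences stay the same without those libraries, and their SE is smaller there. Between DMSO HCC827 and DMSO PC9 it called none of the 9, where 8.25% of all tested genes were called, and 4 had an unadjusted p under 0.05, as did 22.9% of all tested genes. With the doubted libraries left out, AXL (-4.16, adjusted p = 0.000782), GAS6 (-1.75, adjusted p = 0.00597) and DDR1 (-1.09, adjusted p = 0.0209) were lower in DMSO HCC827 than in DMSO PC9.

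Among dormant libraries the F test called IGF1R, 1 of these 7, where 31.6% of all tested genes were called. With the doubted libraries omitted it called 6 of the 7, all but EPHA4, and 62.4% of all tested genes. IGF1R was 1.56 ± 0.39 higher in dormant HCC4006 than in dormant PC9 (adjusted p = 0.0155), where 25% of all tested genes had a higher call. DDR1 was 1.42 ± 0.42 higher in dormant HCC4006 than in dormant HCC827 (adjusted p = 0.0474), where 11% had one. Between dormant HCC827 and dormant PC9 limma called none of the 9, where 10.2% of all tested genes were called, and 2 had an unadjusted p under 0.05, as did 23.8% of all tested genes. These 2 were MET (-1.63 ± 0.48), lower in dormant HCC827, and FGFR2 (0.54 ± 0.19), higher there but under 1 FPKM in both groups. The difference of AXL was -2.91 ± 1.32 and that of IGF1R 0.75 ± 0.39. Dormant HCC827 and dormant PC9 hold no doubted library, so these differences stay the same without those libraries, and their SE is smaller there.

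For none of the 9 did the change with treatment differ between lines by the F test of limma, which called 1.48% of all tested genes. The lowest adjusted p was that of IGF1R (0.309, and 0.0685 without the doubted libraries), and 1 of the 9 had an unadjusted p under 0.05, as did 12.4% of all tested genes. With the first HCC4006 dormant library left out, 5 of the 9 were called by adjusted p, and so were 54.8% of all tested genes.

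In the order of group means, GAS6 ran from dormant HCC4006 (58.0 ± 58.7 FPKM) over dormant PC9 (16.2 ± 6.04), DMSO HCC4006 (11.9 ± 0.113), dormant HCC827 (9.27 ± 1.39) and DMSO PC9 (2.52 ± 0.0106) to DMSO HCC827 (0.025 ± 0.0354; SD, n = 2 each). Its ranges overlapped between the first and the second and between the second and the third of these groups. DDR1 ran from dormant HCC4006 (22.1 ± 3.05 FPKM) over dormant PC9 (12.1 ± 2.0), dormant HCC827 (7.65 ± 1.16), DMSO HCC4006 (7.25 ± 0.187) and DMSO PC9 (5.21 ± 0.0071) to DMSO HCC827 (1.26 ± 0.923). All 3 dormant groups thus had a higher mean of DDR1 than every DMSO group, with overlap between dormant HCC827 and DMSO HCC4006. The group means of AXL were highest in HCC4006 (145 ± 197 FPKM dormant and 253 ± 160 FPKM DMSO), lower in PC9 and lowest in HCC827. The place of dormant HCC4006 rests on its first library, since its values of 285 and 6.28 FPKM lie on either side of all 4 PC9 libraries.

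Other genes of these pathways were taken from lists of ligands, related receptors, adaptors and turnover proteins, 123 genes of which 79 were tested. In the mean 19 rose and 4 fell, where 10.9% and 4.55% of all tested genes did, and their median difference was 0.47, against 0.22 for all tested genes. Of the 19, 8 had fewer than 2 DMSO libraries at 1 FPKM, and of the 4, 1 had fewer than 2 dormant libraries there. These 9 passed the filter through the treatment in which they were high and so had to differ. They are described by their values, and their calls within the counts below are no test. The second ligand of the AXL family, PROS1, an anticoagulant that activates TYRO3 and MERTK, rose by 1.92 ± 0.27 (adjusted p = 0.00199). It had 41.4 and 40.8 FPKM in dormant HCC827, against 7.78 and 2.63 FPKM in DMSO HCC827, and 49.2 and 49.8 FPKM in dormant HCC4006, against 6.91 and 10.9 FPKM in DMSO HCC4006. PC9 had at most 0.505 FPKM. Both ligands of the AXL family thus rose in the mean, while the receptors TYRO3 (0.32 ± 0.27, adjusted p = 0.452) and MERTK (-0.03 ± 0.20, adjusted p = 0.937) were not called.

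Of 7 genes for DDR2 and collagen ligands, 5 were tested and 4 were called higher, 2 of them through the dormant libraries alone. COL4A1, a basement membrane collagen, rose by 1.77 ± 0.24 (adjusted p = 0.00166) and COL5A1 by 1.35 ± 0.17 (adjusted p = 0.00115). COL1A2, which encodes a chain of type I collagen and passed through dormant HCC4006, had 368 and 249.6 FPKM there, against 0.77 and 1.04 FPKM in DMSO HCC4006, and in the other lines it was at most 0.655 FPKM. COL1A1, the other chain, had 7.45 and 12.2 FPKM in dormant HCC4006, against 0.805 and 0.48 FPKM in DMSO HCC4006. It had 2.83 and 2.70 FPKM in dormant HCC827, against 0.55 and 0.36 FPKM in DMSO HCC827. In PC9 the 5 tested collagen genes were at most 0.895 FPKM in any library.

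Of 8 genes of the IGF system, 6 were tested and 3 were called higher, 2 of them, IGF1 and INSR, through the dormant libraries alone. IGF2R, which takes IGF2 to lysosomes, rose by 1.1 ± 0.24 (adjusted p = 0.0145). The ligand IGF1 had 1.49 and 10.1 FPKM in dormant HCC4006, against 0.265 and 0.425 FPKM in DMSO HCC4006. It had 1.31 and 1.15 FPKM in dormant HCC827, against 0.015 and 0.035 FPKM in DMSO HCC827, and was at most 0.005 FPKM in PC9. The insulin receptor INSR had 3.91 and 5.49 FPKM in dormant HCC827, against 0.95 and 0.41 FPKM in DMSO HCC827. In HCC4006 it had 2.10 and 0.285 FPKM in dormant cells, against 0.05 and 0.365 FPKM in DMSO cells, with overlap. On omission of the doubted libraries, the median mean difference of the 6 genes tested was 0.52, against 0.20 for all tested genes.

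Of 17 genes of the FGF system, 10 were tested, 1 rose and 2 were called lower. Without the doubted libraries, the median mean difference of these 10 was 0.21, against 0.20 for all tested genes. FGFBP1, which releases FGFs from the matrix, changed by -1.89 ± 0.22 (adjusted p = 0.000832), with 0.08 and 0.15 FPKM in dormant HCC827, against 6.67 and 12.5 FPKM in DMSO HCC827. In PC9 it had 3.28 and 3.52 FPKM in dormant cells, against 1.09 and 1.13 FPKM in DMSO cells, so its mean does not describe that line. FLRT3, a membrane protein that binds FGF receptors, rose by 1.59 ± 0.35 (adjusted p = 0.0149). The ligand FGF19, which passed through DMSO HCC4006 alone, had 0.11 FPKM and a value listed at 0 in dormant HCC4006, against 1.73 and 2.28 FPKM in DMSO HCC4006, and was at most 0.175 FPKM in the other lines. Of 7 genes around MET, 5 were tested and 1 was called higher, HPN, a membrane protease that can activate the MET ligand, which passed through dormant libraries alone. HPN had 3.45 and 5.96 FPKM in dormant PC9, against 0.385 and 0.055 FPKM in DMSO PC9, and in the other lines 1 library, of dormant HCC4006, reached 1 FPKM (1.16 FPKM). Of the other Eph receptors 4 of 12 were tested and of the ephrins 4 of 8, and limma called none of either. At an unadjusted p under 0.05 there were 0 of these 4 receptors and 2 of these 4 ephrins, where 32.3% of all tested genes were. Without the doubted libraries, the median mean difference was 0.43 for these receptors and 1.33 for these ephrins, against 0.20 for all tested genes. EFNA1, a ligand of EPHA2, named after its values were seen, had 116 and 126 FPKM in dormant HCC827, against 11.2 and 1.72 FPKM in DMSO HCC827. EFNA1 in PC9 had 35 and 32.6 FPKM in dormant cells, against 5.61 and 4.53 FPKM in DMSO cells. EFNA1 in HCC4006 had 85.8 and 2.29 FPKM in dormant cells, against 16.3 and 21.4 FPKM in DMSO cells. Its mean was 2.24 ± 0.71 (adjusted p = 0.0612), and 2.66 without the doubted libraries (adjusted p = 4.56e-06).

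Of 24 further receptor tyrosine kinases 7 were tested and 2 were called higher. PTK7, a receptor whose kinase domain is inactive, rose (0.94 ± 0.22, adjusted p = 0.0197). ROS1 passed through dormant HCC827 alone, with 1.53 and 1.34 FPKM there, against 0.065 and 0.03 FPKM in DMSO HCC827, and was at most 0.37 FPKM in the other lines. Of 23 adaptors and signal carriers, all tested, 6 were called higher and none lower, and 2 of the 6, PIK3R1 and GAB2, passed through the dormant libraries. PIK3R3, a regulatory subunit of PI3K, rose by 1.51 ± 0.24 (adjusted p = 0.00336), and the kinases JAK1 (1.36 ± 0.25, adjusted p = 0.00652) and FYN (1.29 ± 0.25, adjusted p = 0.00841) rose too. PIK3R1, another such subunit, had 5.64 and 4.99 FPKM in dormant HCC827, against 0.48 and 0.205 FPKM in DMSO HCC827, and its groups overlapped in HCC4006. GAB2 had 2.865 and 2.48 FPKM in dormant PC9, against 0.405 and 0.85 FPKM in DMSO PC9. It had 1.69 and 1.845 FPKM in dormant HCC827, against 0.345 and 0.11 FPKM in DMSO HCC827. GAB2 in HCC4006 had 3.465 and 1.74 FPKM in dormant cells, against 0.59 and 0.93 FPKM in DMSO cells. Omitting the doubted libraries, 11 of the 23 were called higher, where 30% of all tested genes were. Of 15 genes that shed, degrade or dephosphorylate receptors, 13 were tested, 1 rose and 2 fell. On omission of the doubted libraries, the median mean difference of these 13 was 0.36, against 0.20 for all tested genes. CBLB, a ubiquitin ligase of receptors, rose by 1.49 ± 0.21 (adjusted p = 0.00185). SH3KBP1, which takes part in receptor uptake, changed by -1.60 ± 0.25 (adjusted p = 0.00296), and ERRFI1, an inhibitor of EGFR, by -1.46 ± 0.30 (adjusted p = 0.011). The lists were chosen with earlier results of these data known, and their counts are descriptions.

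**Figure D4:**
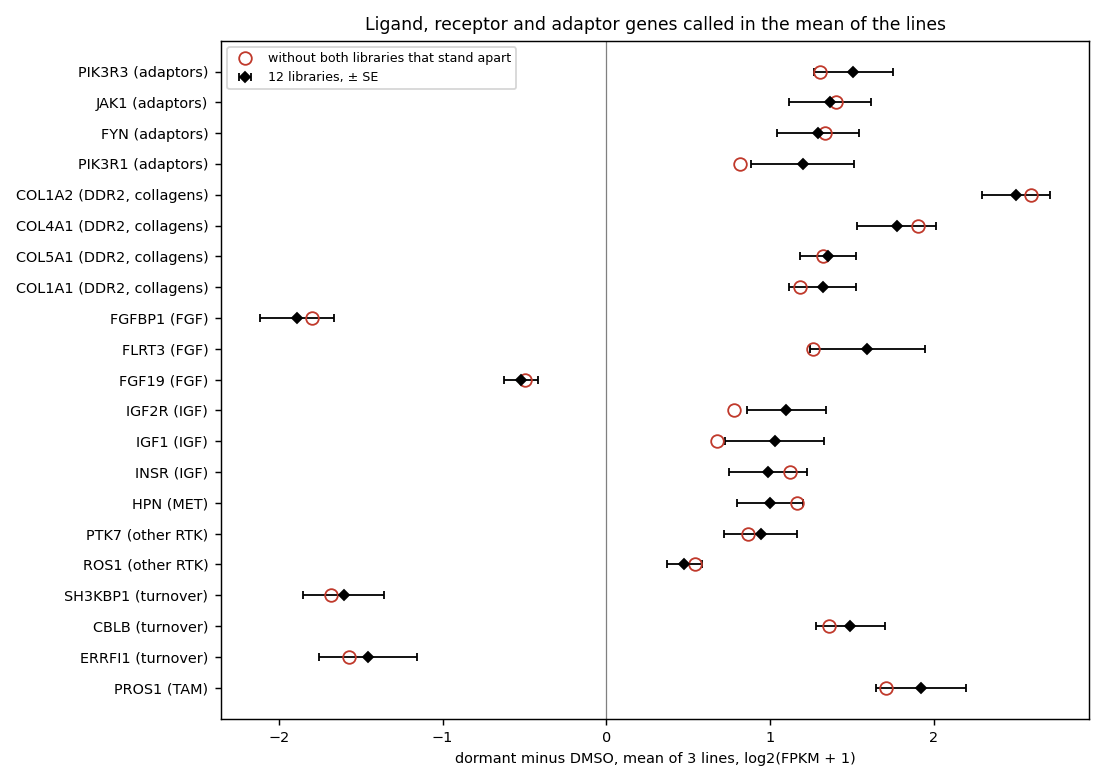
Mean difference of dormant minus DMSO over the 3 lines, in log2(FPKM + 1), for up to 4 called genes of each pathway list, with SE bars (black) and without both doubted libraries (red circles). FGFBP1, FGF19, SH3KBP1 and ERRFI1 lie left of 0 and the others right of 0. FGF19 passed the filter through DMSO libraries alone and HPN, IGF1, INSR, COL1A1, COL1A2, ROS1 and PIK3R1 through dormant libraries alone. These genes had to differ, so their points and SE bars are no test. Among genes that passed through both treatments, those right of 0 run from 0.94 for PTK7 to 1.92 for PROS1.

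For each tested member the 2 genes with the most alike values were sought, by the root mean square difference of log2(FPKM + 1) values centred on their mean over the 12 libraries. Those nearest to AXL were RNASE1 (0.80) and TGFB1I1 (1.12), where AXL itself varied by 2.66 about its mean, so neither followed it closely. Those nearest to GAS6 were PXDN (0.71) and CST6 (0.72), with a variation of GAS6 of 1.80. DDR1 was nearest to SEZ6L2 (0.34) and F8 (0.35), with a variation of 1.06. EPHA2 was nearest to MRPL3 (0.27) and ATP2C2 (0.28), with a variation of 0.94, and IGF1R to GALNT2 (0.24) and HES2 (0.26), with a variation of 0.74. MET was nearest to KIF9 (0.36) and IQGAP3 (0.38), with a variation of 0.65. FGFR1 was nearest to EYA2 (0.21) and AGAP5 (0.23), FGFR2 to HOXC13 and C2CD6 (0.20 each), and EPHA4 to PBLD (0.28) after a gene listed by identifier alone. These values describe 12 libraries that share lines and treatment.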

How the data were processed

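Bulk RNA sequencing of 12 libraries, 2 for each of 3 lines and 2 treatments, was analysed from 1 table of FPKM values as deposited by the authors. Tools in the submitters' processing notes, with no role given, were DESeq2 1.10.1, Cufflinks 2.2.1 and STAR 2.5.1b, and GRCh37 and hg19 were the builds. Each library had 2 value columns, named like the files of a read pair, and their mean was used. Read counts were not analysed, so depth in reads is unknown, and FPKM summed to 793883 to 1159352 per library. U6 pseudogenes listed above 0 had a median of 7.88 FPKM in the second HCC4006 dormant library, against 0.47 to 0.75 FPKM elsewhere. Low values in that library may thus rest on few reads, which was not tested. FPKM is a share of each library, so a few very high genes can move all others.

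Values were tested as log2(FPKM + 1) with limma 3.58.1 in R 4.3.3, with 1 model over the 6 groups and 6 residual degrees of freedom. Tested genes reached 1 FPKM in at least 2 libraries (14699), and p-values were adjusted by Benjamini and Hochberg over all of them. The mean difference weights the 3 lines equally. The steps were tested on simulated data. Tables and plots used Python 3.11.15, pandas 2.3.3 and matplotlib 3.10.9.

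The members and gene lists were chosen with earlier results of these data known. From each list the text names up to 4 genes called in the mean, those with the largest differences, and for each member the 2 genes with the most alike values. Alternatives were other pseudocounts, filters, scalings, weights, the replicate block, each line fitted alone and each library left out. Promoters came from RefSeq (GRCh38.p14) and were matched by symbol. Protein sequences were not used here.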

Additional observations from a re-analysis of the deposited data

How the results depend on the processing

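Of 811 recomputed differences of members, 683 kept direction and side of the threshold, 63 lost their call, 46 gained one and 19 changed sign. GAS6 and DDR1 stayed called in the mean under every alternative run. Members called in the mean were 5 with all libraries, where 15.4% of all tested genes were called. They became 2 with no filter (3.67%), 2 with the replicate block (10.6%) and 3 with array weights (10.8%). In PC9, 0 (2.71% of all tested genes) became 4 with array weights and with the line fitted alone, where 30.5% and 18.2% were called. In HCC827, 2 (4.5% of all tested genes) became 4 with a pseudocount of 0.1 (4.39%) and 1 with no filter (1.42%). It became 0 with the replicate block (1.1%) and 0 with the line alone (0%). In HCC4006, 0 (6.07% of all tested genes) became 1 with quantile normalization (4.39%). Leaving out single libraries moved the counts of members and the shares of all tested genes in the mean, in each line and between lines. FGFR1 and FGFR2 passed the filter through HCC4006 alone and are left out of the counts among DMSO libraries. Among DMSO libraries, 3 of the other members were called (12% of all tested genes). This became 1 with no filter (3.33%) and 0 with the replicate block (6.03%). The counts among dormant libraries, given next, include FGFR1 and FGFR2. Without these genes they were 1 with all libraries, 0 with no filter, 1 with a filter of 6 libraries and 4 with array weights. Among dormant libraries, 3 became 1 with no filter, 1 with a filter of 6 libraries, 5 with array weights and 8 without both doubted libraries (46.8% and 62.4%), and 1 to 7 with each library left out. The sign of FGFR1 turned with median of ratios scaling (-0.10 in the mean, -0.12 in HCC4006), with quantile normalization (-0.14 in the mean, -0.088 in HCC827, -0.0903 in HCC4006) and, in HCC827, without both doubted libraries (-0.14). AXL in HCC4006 was 0.33 without both. With each library left out, signs turned for AXL in HCC827 (-0.51 to 0.15) and HCC4006 (-4.97 to 0.33), MET in PC9 (-0.14 to 0.40), FGFR1 in the mean (-0.13 to 0.23), in HCC827 (-0.14 to 0.41) and in HCC4006 (-0.36 to 0.74), FGFR2 in PC9 (-0.0036 to 0.0729), EPHA2 in HCC827 (-1.06 to 0.32) and EPHA4 in HCC4006 (-0.24 to 1.00). The cause was not tested. Genes called in the mean numbered 2268 of all tested, 1025 to 7390 with each library left out and 1497 to 6299 under the other alternatives. Same-numbered deviations correlated at 0.0906 in PC9, 0.0372 in HCC827 and 0.168 in HCC4006. With a single deviation per group, these values cannot show whether same-numbered samples share more than a number. The median mean difference of all tested genes was 0.22 as deposited and 0.03 under median of ratios scaling. Array weights were equal within each group of 2.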
